A study of Mus musculus with 24 samples.

Results

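Cartilage genes other than collagens were followed through the dental mesenchyme of the mouse lower molar. The set holds 10 of the 56748 genes counted, chosen by name as cartilage genes: the transcription factors Sox9, Sox5 and Sox6, the aggregating proteoglycan gene Acan and the link protein gene Hapln1, the matrilin genes Matn1, Matn3 and Matn4, and the cartilage membrane protein genes Cnmd and Snorc. RNA came from the first molar germs of ICR mouse embryos, at the cap stage (E13) and the bell stage (E15), with no transgene, deletion or drug named for any group. Germs were cut with a fine needle of 30 gauge into a lingual part, toward the tongue, and a buccal part, toward the cheek, and the mesenchyme was freed with dispase II. The 8 groups of 3 libraries were the undivided mesenchyme (Cap-W, Bell-W), the lingual parts (Cap-L, Bell-L), the buccal parts (Cap-B, Bell-B), and the cap stage parts after 2 days in culture, each grown without the other (Cap-L+2D, Cap-B+2D). The methods name 36 embryos of 3 pregnant mice and do not say how they were shared among libraries, so p-values measure only the spread between these libraries, which may be technical.

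Cartilage is laid down by chondrocytes, which are specified by Sox9 and need Sox5 and Sox6 beside it to switch on the matrix genes. The matrix is a network of type II collagen fibrils filled with aggrecan, the product of Acan, which is bound along hyaluronan chains by the link protein of Hapln1. Matrilins bridge collagen and proteoglycan, chondromodulin from Cnmd keeps cartilage free of vessels, and Snorc codes for a small transmembrane proteoglycan of chondrocytes. In the lower jaw the nearest cartilage to the molar germ is Meckel's cartilage, a rod that runs beside the tooth row. Several of these genes are not limited to cartilage, and Sox9, for example, is also active in epithelium, glia and other mesenchyme.

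Libraries held between 20581720 and 39266497 read pairs counted on genes. A count of 3, taken as the floor, corresponds to 0.0764 to 0.146 CPM (counts per 1000000) depending on the library, and floors and intervals cover counting error only. Levels below are CPM after TMM normalization over the 24 libraries, means are given ± SD over 3 libraries, and levels of different genes are compared only per kilobase of exon. All 7 dental mesenchyme markers (Msx1, Pax9 and Lhx6 among them) were above the floor in all 24 libraries. So were all 6 epithelial, 5 endothelial, 6 red blood cell, 5 macrophage and 3 tendon genes, so detection alone does not show that the tissue was pure. The undivided groups were the least even, with a biological coefficient of variation of 0.283 in Cap-W and 0.25 in Bell-W against 0.0177 to 0.0584 in the 6 other groups. Bell-W replicate 3 stood apart, with a summed level of 6 epithelial genes of 1941 CPM against 508 and 435 in the other Bell-W libraries. Cap-W replicate 1 also stood apart, since Rn18s-rs5, a gene of ribosomal RNA, made up 5.39% of its counts against 0.264% and 0.304% in the other Cap-W libraries. Its share was 1.30% and 1.43% in Bell-W replicates 1 and 2, against 0.2225% in Bell-W replicate 3. In the cut parts, fresh or cultured, it was at most 0.298%. Cap-W replicate 2 stood apart in Matn4, as given below.

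The genes lie apart from each other in the genome. In GRCm39, the build of the counts, Sox9 is at chr11:112673050-112678586, Sox5 at chr6:143774151-144727703, Sox6 at chr7:115070107-115638031 and Acan at chr7:78703231-78764847. Matn1 is at chr4:130671696-130682786, Matn3 at chr12:8997929-9022028, Matn4 at chr2:164231313-164247080, Cnmd at chr14:79875130-79899610, Hapln1 at chr13:89687915-89759771 and Snorc at chr1:87397993-87403204. Exons of 8 of the 10 genes overlapped no other gene. Matn4 shares 149 exon bases (2.88%) with Rbpjl on the other strand, and Sox5 shares 9.25% of its exon bases with Sox5os1, which had 1 count in all. Read pairs were counted without strand and those falling on 2 genes were left out, so pairs within the shared bases were counted for neither gene.

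Sequences just before the transcription start are shown for 4 genes with unlike levels: Acan, which rose most in the cultured buccal part, Matn4, which rose with both stage and culture, Sox6, which was higher at the cap stage, and Matn1, which was hardly counted. They are the 250 bases upstream of a RefSeq start in GRCm38.p6, which is an earlier build than that of the counts, and the table held such windows for 8 of the 10 genes (Sox9 and Snorc were not matched). Capitals mark matches on either strand to the SOX cores AACAAT and ACAAAG, the TATA box TATAAA and the GC box GGGCGG, and matches that overlap are joined. The Acan window is chr7:79052976-79053225 (+ strand), the first Matn4 window chr2:164405161-164405410 (- strand), a Sox6 window chr7:115824711-115824960 (- strand), and the Matn1 window chr4:130944135-130944384 (+ strand).
Acan: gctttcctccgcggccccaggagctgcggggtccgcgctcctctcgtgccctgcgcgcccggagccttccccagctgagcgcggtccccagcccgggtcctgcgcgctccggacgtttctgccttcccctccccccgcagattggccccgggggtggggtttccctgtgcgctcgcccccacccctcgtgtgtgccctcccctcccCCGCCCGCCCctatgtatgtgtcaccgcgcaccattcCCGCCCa
Matn4: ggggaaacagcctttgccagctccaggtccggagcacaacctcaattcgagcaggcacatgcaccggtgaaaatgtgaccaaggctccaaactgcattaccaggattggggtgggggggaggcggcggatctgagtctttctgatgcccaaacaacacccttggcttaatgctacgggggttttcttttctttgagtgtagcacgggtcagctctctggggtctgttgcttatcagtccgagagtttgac
Sox6: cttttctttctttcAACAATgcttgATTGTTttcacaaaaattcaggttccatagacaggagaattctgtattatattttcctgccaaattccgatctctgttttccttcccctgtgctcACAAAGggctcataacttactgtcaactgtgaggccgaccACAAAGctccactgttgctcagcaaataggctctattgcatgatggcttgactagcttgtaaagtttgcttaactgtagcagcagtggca
Matn1: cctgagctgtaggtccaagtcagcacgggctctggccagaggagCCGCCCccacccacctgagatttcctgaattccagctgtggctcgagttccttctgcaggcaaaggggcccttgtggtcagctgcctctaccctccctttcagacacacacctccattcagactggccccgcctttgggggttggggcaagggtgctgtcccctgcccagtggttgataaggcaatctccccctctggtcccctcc
Of all 32851 such windows in the table, 24.0% held 1 of the SOX cores, 12.4% the TATA box and 32.7% the GC box. The Acan window held 3 GC boxes and is rich in G and C (74.4%), and the Matn1 window held 1 GC box. The first Matn4 window held no match and 54.4% G and C, while the second, not shown, held 1 GC box and 62.8% G and C. The Sox6 window held 4 SOX core matches, 2 of each core, the most of the 6 Sox6 windows in the table, of which the others held 1, 1, 2, 1 and 0. No SOX core was present in the windows of Acan, Matn1, Matn3, Matn4, Cnmd, Hapln1 or Sox5, which says only that these letters are not in these 250 bases.

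The cartilage genes were expressed at very unequal levels, from Matn4 and Sox9 at the top to Matn1 and Snorc near the limit of detection. Averaged over the 24 libraries, Matn4 was the highest at 12.6 CPM per kilobase of exon, followed by Sox9 at 6.48, Hapln1 at 1.96, Sox6 at 1.73, Acan at 0.930, Cnmd at 0.863 and Sox5 at 0.668. Matn3 came to 0.117, Snorc to 0.0355 and Matn1 to 0.0198. By comparison the type II collagen gene Col2a1 had group means from 2.73 CPM per kilobase in Bell-W to 25.8 in Cap-L.

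**Figure D1:**
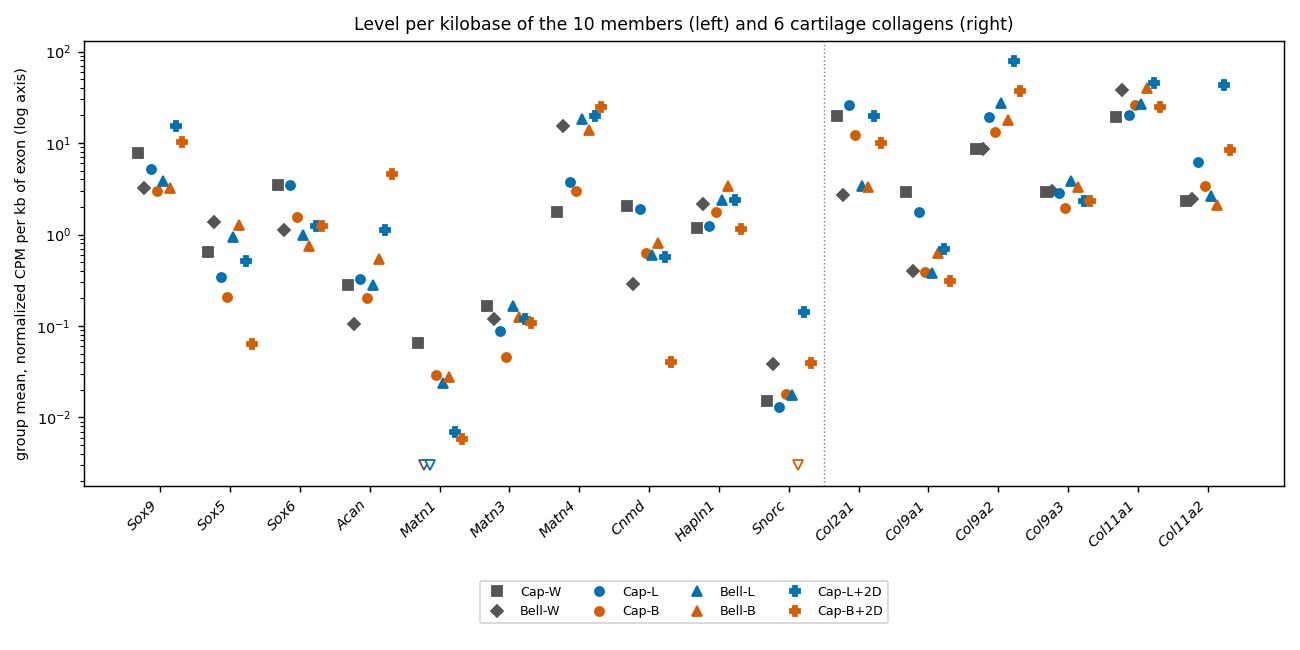
Group means in normalized CPM per kilobase of exon, on a log axis, for the 10 cartilage genes (left of the dotted line) and 6 cartilage collagens (right); grey marks undivided, blue lingual and orange buccal groups, and open triangles at the bottom mark groups with no counts. Matn1 and Snorc lie far below the collagens in every group, while Matn4 and Sox9 reach the collagen range.

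Matn1, which codes for the first known cartilage matrilin, had 26 counts in 24 libraries and was at 0 in 13 of them. The highest was Cap-W replicate 2 with 9 counts, the only library above the floor. Pooled over 3 libraries, Cap-W came to 0.159 CPM (95% exact Poisson interval 0.0794 to 0.284), and Cap-L and Bell-W had 0 counts, for which the same interval reaches 0.0409 and 0.0478 CPM. Snorc had 18 counts in all and was at 0 in 15 libraries. Its highest library was Cap-L+2D replicate 2 with 4 counts, and the pooled Cap-L+2D level was 0.0936 CPM (0.0428 to 0.178), while Bell-B had 0 counts. Neither gene passed the filter on low counts in any comparison, so differences between sides or stages were not tested for them. The pooled Matn1 intervals of Cap-W and Bell-W did not overlap, but 9 of the 11 Cap-W counts came from replicate 2.

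Matn3, a matrilin of growing cartilage, was counted in all 24 libraries but stayed between 0.140 ± 0.0165 CPM in Cap-B and 0.501 ± 0.00745 CPM in Bell-L. Its 3 Cap-B libraries held 0.135, 0.125 and 0.158 CPM and lay below all other libraries, the nearest being in Bell-W at 0.185. In the other 7 groups the values overlapped from each group to the next in the order of means. It passed the filter in 5 of the 10 tests and was called in none, except from the cap to the bell stage in the lingual part when Cap-L replicate 1 was left out (adjusted p = 0.0429).

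**Figure D2:**
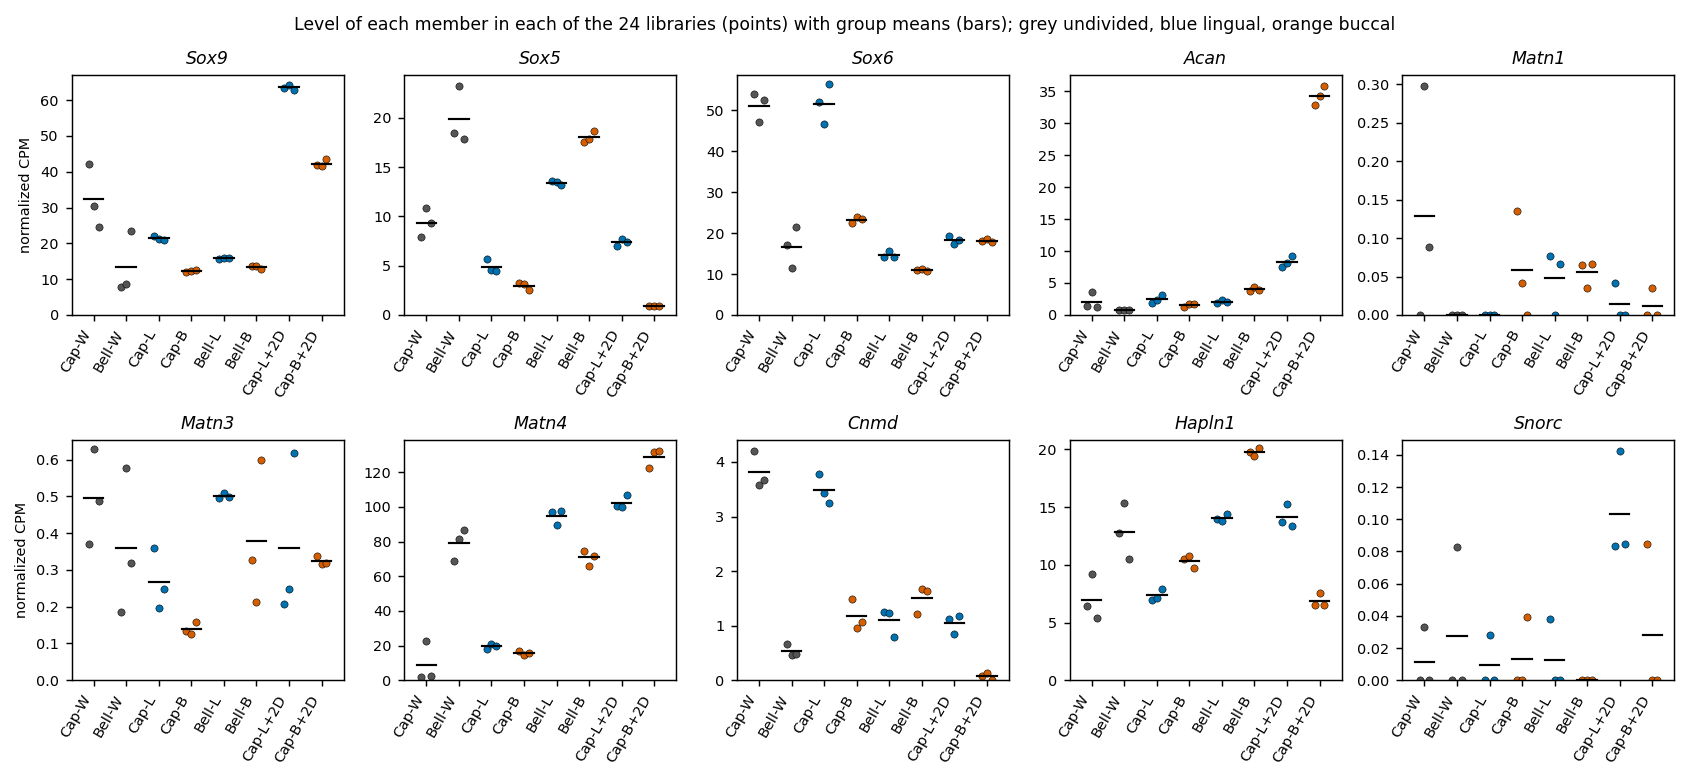
Normalized CPM (linear axes from 0, 1 panel per gene) of the 10 cartilage genes in each of the 24 libraries; points are libraries, bars are means of 3, grey is undivided, blue lingual and orange buccal mesenchyme. Acan and Matn4 peak in Cap-B+2D, Sox9 in Cap-L+2D, and Sox6 and Cnmd in Cap-W and Cap-L.

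Each difference was tested by edgeR's quasi-likelihood method and called at a Benjamini-Hochberg adjusted p under 0.05 over all genes tested and an absolute log2 fold change over 0.5. In bulk tissue, fewer cells of a type and less RNA per cell cannot be told apart. Of the 10 genes, 7 were tested in every comparison.

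At the cap stage most of the cartilage genes tested were higher on the lingual than on the buccal side. In Cap-B against Cap-L, 5 of the 7 tested genes were higher in Cap-L (Sox9, Sox5, Sox6, Acan and Cnmd) and 1 was higher in Cap-B (Hapln1), where 7.10% of all genes tested were called higher in Cap-L and 10.4% higher in Cap-B. The median log2 fold change, buccal over lingual, was -0.70 over the tested members and -0.01 over all genes. With 1 library left out, the 6 calls fell to 4 at the lowest, where Acan and Hapln1 were lost. At the bell stage 1 of 8 tested members was called, Acan, higher in Bell-B (background 6.00% higher in Bell-B and 6.88% higher in Bell-L), and the median was 0.10. The count was 2 without Bell-L replicate 3 or Bell-B replicate 2, which added Hapln1, and without Bell-B replicate 1, which added Cnmd. After culture, 4 of 7 were higher in Cap-L+2D (Sox9, Sox5, Cnmd and Hapln1) and 1, Acan, was higher in Cap-B+2D, where 12.5% of all genes were called in each direction.

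From the cap to the bell stage the same set split. In the undivided mesenchyme 3 of 8 tested members rose (Sox5, Matn4 and Hapln1) and 2 fell (Sox6 and Cnmd), against 10.3% of all genes higher in Bell-W and 4.21% higher in Cap-W. Only 3 were called without any 1 of Cap-W replicates 1 and 3 and Bell-W replicates 1 and 2, where Matn4 and Hapln1 were lost. Sox5, Sox6 and Cnmd kept their calls without Cap-W replicate 1, the library richest in ribosomal RNA. They also kept them without Bell-W replicate 1 or 2, the next richest, each left out alone. The part of ribosomal RNA in the levels was not tested. In the lingual part 3 of 8 rose (Sox5, Matn4 and Hapln1) and 2 fell (Sox6 and Cnmd), against 14.2% and 5.78% of all genes. In the buccal part 4 of 7 rose (Sox5, Acan, Matn4 and Hapln1) and 1 fell (Sox6), against 12.0% and 6.73%. Sox5 and Sox6, which work as a pair in chondrocytes, thus moved in opposite directions in all 3 stage comparisons.

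Culture of the cap stage parts raised 5 of 8 tested members in the lingual part (Sox9, Sox5, Acan, Matn4 and Hapln1) and lowered 2 (Sox6 and Cnmd), where 19.6% of all genes rose and 15.9% fell. In the buccal part 3 of 7 rose (Sox9, Acan and Matn4) and 3 fell (Sox5, Cnmd and Hapln1), where 17.9% of all genes rose and 16.6% fell. The comparisons by stage and by culture share the Cap-L or Cap-B libraries and are not independent of each other.

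The difference between the sides itself changed for most members. Between the stages, the interaction passed an adjusted p under 0.05 for 5 of 8 tested members, all moving toward the buccal side (Sox9, Sox5, Sox6, Acan and Cnmd), where 32.5% of all genes did so in either direction. Between the fresh and the cultured parts it passed for 6 of 7, of which Sox6, Acan and Matn4 moved toward the buccal side and Sox5, Cnmd and Hapln1 toward the lingual side, where 35.5% of all genes passed.

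**Figure D3:**
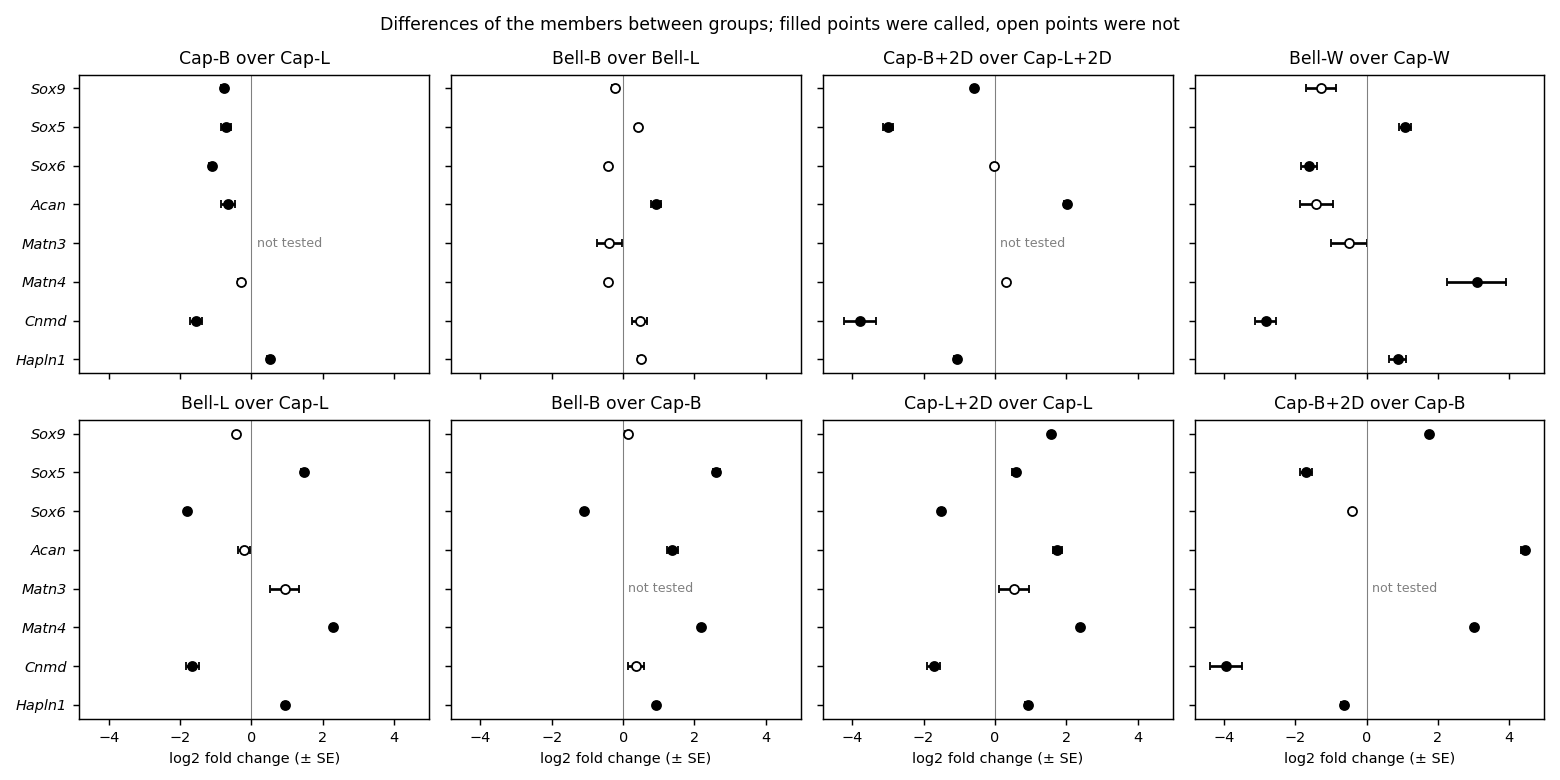
Log2 fold changes (± SE, from the edgeR fit) of 8 cartilage genes in the 8 comparisons between 2 groups, each panel named as the first group over the second; filled points were called and open points were not. Acan lies left of 0 in Cap-B over Cap-L and right of 0 in the other 2 comparisons of the sides, and Sox5 and Sox6 lie on opposite sides of 0 in the 3 stage comparisons.

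Sox9, the factor that specifies chondrocytes, was highest in culture. In Cap-L the libraries held 21.9, 21.3 and 21.1 CPM and in Cap-B 12.0, 12.3 and 12.5 CPM. Every lingual library was above every buccal one, and the log2 fold change was -0.78 ± 0.07 (SE, adjusted p = 1.96e-08), a 1.71-fold difference. At the bell stage the values drew together, at 15.6, 15.8 and 15.9 CPM in Bell-L and 13.8, 13.8 and 12.8 CPM in Bell-B, and the log2 fold change of -0.23 ± 0.07 was too small to be called. The interaction of side and stage was 0.54 ± 0.09 (adjusted p = 2.06e-05, but 0.377 in a fit of all 24 libraries).

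Culture raised Sox9 on both sides. Cap-L+2D held 63.5, 64.3 and 62.8 CPM and Cap-B+2D 41.9, 41.5 and 43.5 CPM, so the cultured parts lay above every fresh part. Between the cultured parts the log2 fold change was -0.59 ± 0.04 (adjusted p = 1.70e-11, but 0.0572 in the fit of all 24 libraries). The log2 fold change over the fresh part was 1.56 ± 0.05 (adjusted p = 5.67e-19) in the lingual and 1.75 ± 0.06 (adjusted p = 2.98e-23) in the buccal part, and the interaction of side and culture did not pass (0.18 ± 0.08, adjusted p = 0.0712). In the undivided mesenchyme Cap-W held 42.2, 30.4 and 24.7 CPM and Bell-W 7.92, 8.59 and 23.5 CPM. The third Bell-W library alone stood near the cap level. It is the library with high epithelial genes, and its 6 Schwann cell and glia markers also summed to 73.5 CPM against 22.2 and 17.8. The Acan relatives Ncan and Bcan were at 27.5 and 11.0 CPM in it, against at most 0.444 and 0.0413 CPM in the other Bell-W libraries. The part of other cells in its Sox9 was not tested. The log2 fold change of -1.28 ± 0.43 (adjusted p = 0.0849) was not called with this library and was -1.98 (adjusted p = 0.00518) without it.

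Sox5, partner of Sox6 in a pair of long SOX proteins without an activation domain, was low at the cap stage and rose by the bell stage. Cap-L held 5.65, 4.57 and 4.48 CPM and Cap-B 3.20, 3.14 and 2.52 CPM, with no overlap (log2 fold change -0.70 ± 0.14, adjusted p = 0.000493). Bell-L held 13.6, 13.5 and 13.2 CPM and Bell-B 17.6, 17.8 and 18.7 CPM. Both bell stage parts lay above both cap stage parts, with a rise of 1.48 ± 0.09 in the lingual and 2.61 ± 0.10 in the buccal part on the log2 scale (adjusted p = 7.33e-13 and 2.16e-21), and the order of the sides had changed. The interaction was 1.12 ± 0.14 (adjusted p = 2.71e-07), although the bell stage difference alone, 0.42 ± 0.06, stayed under the fold limit. In undivided mesenchyme Cap-W held 7.91, 10.9 and 9.30 CPM and Bell-W 18.4, 23.3 and 17.9 CPM, a rise of 1.07 ± 0.17 (adjusted p = 0.00566).

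In culture Sox5 parted between the sides more than at any other time. Cap-L+2D held 6.99, 7.68 and 7.42 CPM, a rise of 0.59 ± 0.10 over Cap-L (adjusted p = 1.14e-05). Cap-B+2D held 0.929, 0.950 and 0.894 CPM, a fall of 1.70 ± 0.17 from Cap-B (adjusted p = 1.20e-10). The cultured lingual part thus held 8.00 times as much as the cultured buccal part, and the interaction of side and culture was -2.30 ± 0.21 (adjusted p = 2.01e-10). The buccal part was therefore the lowest of all groups for this gene after culture and the second highest at the bell stage.

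Sox6 was a cap stage gene, with most in the lingual part. Cap-L held 52.0, 46.6 and 56.5 CPM, Cap-B 22.6, 23.8 and 23.6 CPM and Cap-W 54.0, 47.1 and 52.5 CPM. Cap-W and Cap-L overlapped and both lay above the other 6 groups. The log2 fold change of the sides was -1.12 ± 0.07 (adjusted p = 2.65e-10), a 2.17-fold difference. Bell-L held 14.2, 15.7 and 14.2 CPM, Bell-B 11.0, 11.2 and 10.7 CPM and Bell-W 17.2, 11.4 and 21.6 CPM. The fall from the cap stage was 1.80 ± 0.07 in the lingual part, 1.09 ± 0.06 in the buccal part and 1.62 ± 0.22 in undivided mesenchyme on the log2 scale (adjusted p = 1.11e-16, 3.64e-16 and 0.00319).

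The side difference of Sox6 was smaller at the bell stage and was not detected in culture. In bell stage tissue it was -0.42 ± 0.07, under the fold limit, and the interaction with stage was 0.69 ± 0.10 (adjusted p = 3.37e-06). Cap-L+2D held 19.2, 17.3 and 18.2 CPM and Cap-B+2D 18.1, 18.5 and 17.9 CPM, which overlap, with a log2 fold change of -0.01 ± 0.06 (adjusted p = 0.894). The lingual part fell by 1.51 ± 0.07 in culture (adjusted p = 6.69e-16), and the buccal part differed by -0.40 ± 0.06, under the fold limit. The interaction with culture was 1.10 ± 0.09 (adjusted p = 5.60e-11).

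Acan, which codes for aggrecan, the proteoglycan that makes cartilage stiff, was low in fresh tissue and changed sides. Cap-L held 1.91, 2.41 and 3.07 CPM (53 to 87 counts) and Cap-B 1.17, 1.76 and 1.66 CPM (26 to 42 counts), with a log2 fold change of -0.65 ± 0.20 (adjusted p = 0.0150). This call was kept in 4 of 6 fits that left out 1 library, and its adjusted p was 0.0715 without Cap-L replicate 3, 0.0760 without Cap-B replicate 1 and 0.0737 in the fit of all 24 libraries. At the bell stage Bell-L held 1.91, 2.29 and 2.09 CPM and Bell-B 3.70, 4.45 and 3.92 CPM, so every buccal library was above every lingual one (0.93 ± 0.14, adjusted p = 5.55e-07, kept in 6 of 6 such fits). The interaction was 1.58 ± 0.24 (adjusted p = 6.68e-06). The buccal part rose by 1.38 ± 0.15 between the stages (adjusted p = 3.48e-09), and the lingual part differed by -0.22 ± 0.17 (adjusted p = 0.310).

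The highest Acan levels were in cultured buccal mesenchyme. Cap-B+2D held 32.8, 34.3 and 35.9 CPM and Cap-L+2D 7.58, 8.14 and 9.22 CPM, both above every fresh library. The rise in culture was 21.7-fold in the buccal part (log2 fold change 4.44 ± 0.10, adjusted p = 1.48e-27) and 3.38-fold in the lingual part (1.76 ± 0.13, adjusted p = 1.22e-11). Between the cultured parts the difference was 4.06-fold (2.02 ± 0.07, adjusted p = 3.62e-18), and the interaction of side and culture was 2.67 ± 0.20 (adjusted p = 4.90e-12). Skeletal muscle genes moved the same way: the 8 markers summed to between 3900 and 4107 CPM in Cap-B+2D, and between 319 and 343 CPM in Cap-L+2D, with means of 211 CPM in Cap-B and 18.3 CPM in Cap-L. The 6 epithelial markers moved the other way, at 28.6 to 30.8 CPM in Cap-B+2D and 379 to 413 CPM in Cap-L+2D. At the cap stage the muscle genes were higher in Cap-B, where Acan was lower. The part of these tissues in the Acan levels was not tested.

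For Acan, Bell-W lay below both of its parts. Cap-W held 1.33, 3.61 and 1.28 CPM, with replicate 2 the highest, and Bell-W held 0.777, 0.785 and 0.797 CPM, below every library of Bell-L and Bell-B. The stage difference in undivided mesenchyme was -1.41 ± 0.47 (adjusted p = 0.0840), which was not called, and -0.74 (adjusted p = 0.277) without Cap-W replicate 2. Other members also had an undivided group outside both of its parts. For Sox9 and Sox5 every Cap-W library lay above every Cap-L and Cap-B library. For Cnmd every Bell-W library lay below every Bell-L and Bell-B library. Levels in undivided mesenchyme thus did not always lie between those of its parts.

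Hapln1, the link protein that locks aggrecan onto hyaluronan, was higher on the buccal side at the cap stage, opposite to Acan. Cap-L held 6.98, 7.13 and 7.94 CPM and Cap-B 10.5, 10.8 and 9.70 CPM, with no overlap. The log2 fold change was 0.52 ± 0.09 (adjusted p = 0.000141), close to the fold limit of 0.5, and the call was kept in only 2 of 6 fits with 1 library left out, because the fold fell to between 0.48 and 0.50 without Cap-L replicate 1 or 2 or Cap-B replicate 1 or 2. At the bell stage Bell-L held 14.0, 13.8 and 14.4 CPM and Bell-B 19.8, 19.4 and 20.1 CPM, again with no overlap, and the difference of 0.49 ± 0.06 was just under the limit. The interaction of side and stage was -0.03 ± 0.10 (adjusted p = 0.855), and Hapln1 rose between the stages by 0.95 ± 0.08 lingually and 0.94 ± 0.07 buccally on the log2 scale (adjusted p = 4.46e-10 and 8.04e-13).

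In culture the order of the sides turned for Hapln1. Cap-L+2D held 13.7, 15.3 and 13.4 CPM and Cap-B+2D 6.50, 7.56 and 6.48 CPM. The lingual part rose by 0.94 ± 0.08 and the buccal part fell by 0.63 ± 0.08 (adjusted p = 2.52e-10 and 7.54e-08), and the interaction was -1.58 ± 0.13 (adjusted p = 1.87e-11). Acan and its link protein thus lay on opposite sides both at the cap stage and after culture. In undivided mesenchyme Cap-W held 6.42, 9.20 and 5.36 CPM and Bell-W 12.8, 15.4 and 10.5 CPM, a rise of 0.87 ± 0.24 (adjusted p = 0.0484) that was kept in 2 of 6 fits with 1 library left out.

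Matn4, a matrilin found in many tissues, was the most abundant member per kilobase on average over the 24 libraries, though below Sox9 in Cap-W and Cap-L, and rose both with stage and with culture. Cap-L held 17.9, 21.1 and 19.5 CPM and Cap-B 16.8, 14.5 and 15.6 CPM, and the log2 fold change of the sides, -0.30 ± 0.08, was under the limit. Bell-L held 97.3, 89.3 and 97.8 CPM and Bell-B 74.8, 66.1 and 71.9 CPM, all far above the cap stage (2.29 ± 0.06 in the lingual and 2.18 ± 0.06 in the buccal part, adjusted p = 1.05e-20 and 5.13e-25). Cap-L+2D held 100.5, 99.9 and 107.1 CPM and Cap-B+2D 122.6, 131.9 and 132.2 CPM. The rise in culture was 5.21-fold in the lingual and 8.05-fold in the buccal part (log2 fold change 2.38 ± 0.06 and 3.01 ± 0.06, adjusted p = 1.50e-21 and 3.02e-30), with an interaction of 0.62 ± 0.09 (adjusted p = 9.39e-07, but 0.508 in the fit of all 24 libraries). The sides themselves differed by 0.32 ± 0.04 after culture, under the limit.

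In undivided cap mesenchyme Matn4 depended on the library. Cap-W replicate 2 held 22.8 CPM, close to the cut parts, and replicates 1 and 3 held 1.81 and 2.57 CPM, lower than any other library. Bell-W held 68.6, 81.3 and 87.0 CPM. The stage difference was 3.08 ± 0.83 (adjusted p = 0.0433) and was called in 1 of 6 fits with 1 library left out, the one without Cap-W replicate 2, where it was 5.14 (adjusted p = 0.000593). Cap-W replicate 2 was also the library with the most Matn1, Acan, Hapln1, Sox5 and Matn3 in its group, but the least Sox6 and Cnmd. Its osteoblast genes summed to 401 CPM against 293 and 341 CPM in Cap-W replicates 1 and 3. The part of such cells in its Matn4 was not tested.

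The genes whose levels followed Matn4 most closely over the 24 libraries (Pearson's r of log2 CPM, over libraries that share tissue, group and depth) were Gm28875 (r = 0.973), Slpi (0.972) and Rbpjl (0.963). Gm28875 is an unnamed gene on another chromosome. Slpi and Rbpjl, in contrast, are the neighbours of Matn4 on either side: the start of Slpi lies 297 bases downstream of Matn4 on the same strand, and Rbpjl overlaps it on the opposite strand. Their counts were a small share of those of Matn4 in every library, between 3.21% and 12.1% for Slpi and between 1.61% and 6.90% for Rbpjl. In Cap-W, where Matn4 varied most, Rbpjl was at 0.0531, 0.662 and 0.177 CPM and Slpi at 0.106, 1.06 and 0.310 CPM, highest in the same library. The counts carry no strand, and how many of the Rbpjl and Slpi counts were transcripts of Matn4 was not tested.

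**Figure D4:**
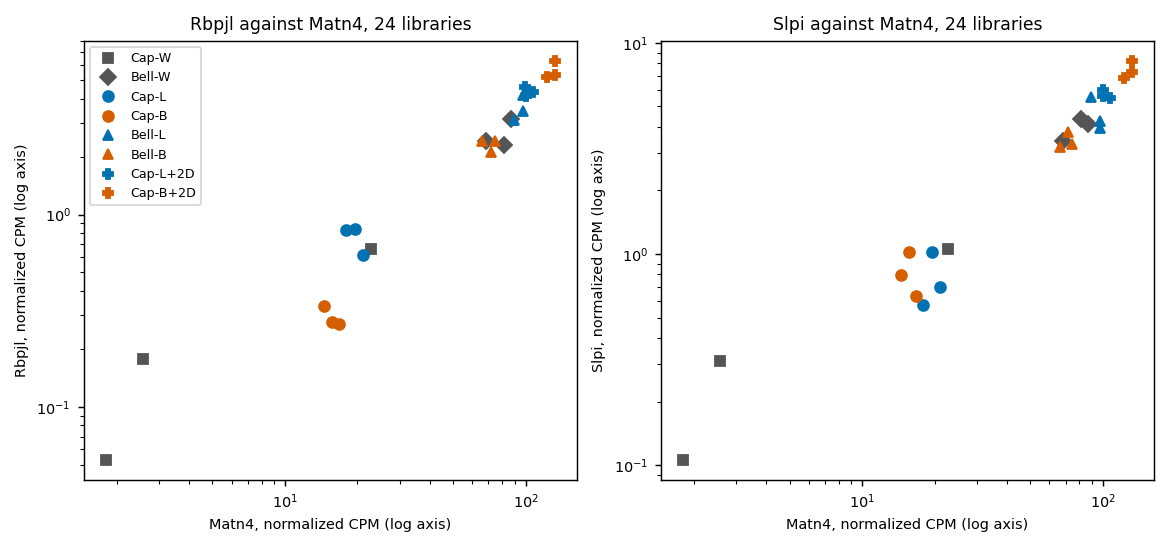
Normalized CPM (both axes log) of Rbpjl (left) and Slpi (right) against Matn4 in the 24 libraries; each point is a library, with the shape and colour of its group. Points of the bell stage and culture groups lie at the upper right and replicates 1 and 3 of Cap-W at the lower left, with r of 0.963 for Rbpjl and 0.972 for Slpi.

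Cnmd, which codes for the vessel-repelling protein chondromodulin, showed the largest side differences of the 7 fully tested genes at the cap stage and after culture. Cap-L held 3.78, 3.42 and 3.25 CPM (92 to 122 counts) and Cap-B 1.49, 0.962 and 1.06 CPM (23 to 33 counts), so the lingual part held 2.93 times as much (log2 fold change -1.55 ± 0.18, adjusted p = 9.15e-07). Bell-L held 1.26, 1.24 and 0.796 CPM and Bell-B 1.21, 1.67 and 1.63 CPM, which overlap, and the difference of 0.46 ± 0.22 did not pass (adjusted p = 0.0931). The interaction was 2.01 ± 0.28 (adjusted p = 1.76e-06). The lingual part fell by 1.66 ± 0.18 between the stages (adjusted p = 2.25e-08) and the buccal part differed by 0.36 ± 0.23 (adjusted p = 0.212). In undivided mesenchyme the fall was larger, from 4.195, 3.57 and 3.67 CPM in Cap-W to 0.666, 0.454 and 0.478 CPM in Bell-W (2.83 ± 0.30, adjusted p = 0.00121).

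Culture also lowered Cnmd from its cap stage level on both sides, in the lingual part to a range that overlapped Bell-L. Cap-L+2D held 1.12, 0.853 and 1.18 CPM, a fall of 1.72 ± 0.18 (adjusted p = 4.85e-09). Cap-B+2D held 3, 4 and 0 counts, so only 1 of its libraries was above the floor. Pooled, it came to 0.0690 CPM (95% exact Poisson interval 0.0278 to 0.142) against 0.967 CPM (0.781 to 1.18) in Cap-L+2D. The log2 fold changes, -3.94 ± 0.44 from Cap-B and -3.78 ± 0.44 from Cap-L+2D (adjusted p = 1.51e-09 and 5.62e-08), depend on the prior count at levels so low. The interaction was -2.23 ± 0.53 (adjusted p = 0.00116).

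Per gene, the order of the group means shows how little the members shared. Sox9 was highest in Cap-L+2D and lowest in Cap-B (5.18-fold between the means), Sox5 highest in Bell-W and lowest in Cap-B+2D (21.5-fold), Sox6 highest in Cap-L and lowest in Bell-B (4.70-fold), and Acan highest in Cap-B+2D and lowest in Bell-W (43.6-fold). Matn4 was highest in Cap-B+2D and lowest in Cap-W (14.2-fold), Hapln1 highest in Bell-B and lowest in Cap-B+2D (2.89-fold), and Cnmd highest in Cap-W and lowest in Cap-B+2D. No group was the highest for more than 2 of these 7 genes, but Cap-B+2D was the lowest for 3 of them. Neighbours in the order often overlapped. For Hapln1, Cap-L overlapped Cap-W and Cap-W overlapped Cap-B+2D. For Sox6, Cap-L+2D overlapped Cap-B+2D, that group Bell-W, and Bell-W in turn Bell-L, while Cap-L+2D and Bell-L lay apart. For Cnmd, Bell-B overlapped Cap-B, that group Bell-L, and Bell-L in turn Cap-L+2D.

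Other genes with patterns close to a member, by the same correlation over 24 libraries, are given as a description. Sox5 was followed by 1700018A04Rik (r = 0.984) and by the hedgehog receptor gene Ptch1 (0.966). The gene closest to Hapln1 was Hhip (0.917), a membrane protein that binds hedgehog ligands. Acan was followed by the mitochondrial calcium channel gene Mcu (0.947) and the protease gene Adam19 (0.939), Cnmd by Adamts19 (0.920), Sox6 by Stk32b (0.920) and Sox9 by Gm17538 (0.941).

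The cartilage collagens gave the setting at each stage. At the cap stage 5 of 6 were higher in Cap-L and none in Cap-B, with a median log2 fold change of -0.70. Over all genes tested, 7.10% were higher in Cap-L and 10.4% in Cap-B. Col2a1, the main fibril collagen, was at 239 ± 8.92 CPM in Cap-L and 112 ± 2.95 CPM in Cap-B (-1.07, adjusted p = 8.33e-13). At the bell stage it was at 31.0 ± 1.91 and 30.3 ± 1.06 CPM. There 2 of the 6 collagens were higher in Bell-B and 1 in Bell-L, against 6.00% and 6.88% of all genes. After culture 5 of 6 were higher in Cap-L+2D and none in Cap-B+2D (median -1.05), against 12.5% of all genes in each direction. Col2a1 was then at 184 ± 13.9 against 91.4 ± 4.74 CPM. Acan was thus higher on the side where these 5 collagens were lower.

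Late cartilage genes were scarce. Col10a1, the collagen of hypertrophic chondrocytes, had group means between 0.0632 and 0.205 CPM, near the floor, and passed the filter in no comparison. Ihh, the hedgehog ligand of prehypertrophic cartilage and also of other tissues, was at 2.57 ± 0.0559 CPM in Cap-L and 1.05 ± 0.356 CPM in Cap-B (-1.28 on the log2 scale, called) and at 0.430 ± 0.0387 CPM in Bell-L.

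Among 10 further matrix genes of cartilage only 4 were above the floor in all 24 libraries. At the cap stage 4 were tested and 1 was called, Hapln3, higher in Cap-B by 1.497 (log2), where 10.4% of all genes were higher in Cap-B. After culture 2 of 6 tested were higher in Cap-B+2D, Hapln3 among them, and 2 in Cap-L+2D, among them Chad, at -1.08. The share over all genes was 12.5% in each direction. Hapln3, a relative of Hapln1, was higher on the buccal side in all 3 comparisons of the sides (1.497, 0.992 and 0.812).

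A list of 11 genes of enzymes and transporters that serve the sugar chains of proteoglycans and their sulfation was tested in full. In the cultured lingual part 7 rose and 1 fell (median 0.78, against -0.03 over all genes), where 19.6% of all genes rose and 15.9% fell. In the cultured buccal part 3 rose and none fell (median 0.17), where 17.9% of all genes rose and 16.6% fell. Ugdh, which makes the building block UDP-glucuronate, rose by 0.90 in the lingual and 0.71 in the buccal part, and Chpf, a chondroitin polymerizing factor, by 1.33 and 0.98. At the cap stage 3 of 11 were higher in Cap-B and none in Cap-L, against 10.4% and 7.10% of all genes. After culture 2 were higher in Cap-B+2D and 3 in Cap-L+2D, against 12.5% in each direction. Between the stages at most 2 were called in either direction in any of the 3 comparisons, where 4.21% to 14.2% of all genes were.

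Of 12 growth plate regulators, genes that set the pace of cartilage growth, 8 were tested at the cap stage, where 7.10% of all genes were higher in Cap-L and 10.4% in Cap-B. Of these 8, 5 were higher in Cap-L, among them Wwp2 (-0.70), a ubiquitin ligase gene, and 1 in Cap-B, Trps1 (0.79), a repressor of the GATA family. Among bell stage parts 1 of 7 was called, where 6.00% of all genes were higher in Bell-B and 6.88% in Bell-L. After culture 4 of 8 were higher in Cap-L+2D and 1 in Cap-B+2D, Trps1 (0.89), against 12.5% of all genes in each direction.

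Relatives of the members in other tissues did not all move with them. Vcan, the aggrecan relative of loose mesenchyme, was higher in Cap-L (-0.58) and Cap-L+2D (-1.17) and rose with stage in undivided (0.94), lingual (0.77) and buccal (0.90) mesenchyme, but fell by 0.74 in the cultured buccal part, where Acan rose. Matn2, the most abundant relative among matrilins, rose with stage in all 3 comparisons (1.201, 0.523 and 1.072) and in both cultures (0.88 and 0.67). Of the 11 relatives, 4 of 8 tested were higher in Cap-B and 2 in Cap-L at the cap stage. Over all genes these shares were 10.4% and 7.10%.

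Markers of other tissues moved with the same comparisons. At the cap stage all 6 osteoblast genes tested were higher in Cap-L (median -1.17), all 7 muscle genes tested and all 6 Schwann cell genes higher in Cap-B (medians 4.17 and 1.30), and 4 of 6 epithelial genes higher in Cap-L. Over all genes, 7.10% were higher in Cap-L and 10.4% in Cap-B. The osteoblast genes summed to between 974 and 984 CPM in Cap-L against 446 to 463 in Cap-B, with Bglap at or under the floor in all 3 Cap-B libraries, and to between 2418 and 2442 CPM in Cap-L+2D against 600.1 to 611 in Cap-B+2D. Of the 3 tendon genes, Mkx and Tnmd were higher in Cap-L and in Cap-L+2D, and Scx was higher in Cap-B and in Cap-B+2D. In culture all 6 red blood cell genes fell and all 5 macrophage genes rose on both sides. Over all genes, 19.6% rose and 15.9% fell in the lingual part, and 17.9% rose and 16.6% fell in the buccal part. Of the 5 endothelial genes, 4 were higher in the cultured lingual than in the cultured buccal part, against 12.5% of all genes. The part of all these tissues in the levels of the cartilage genes was not tested.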

How the data were processed

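Bulk RNA-seq libraries of 8 groups of 3 were grouped by their labels. The authors deposited raw counts, which are numbers of read pairs on each of 56748 genes. The header of their table names featureCounts 2.0.0 with Ensembl release 107 on GRCm39, while the submitters' processing notes list Subread 2.0.3, Bowtie 1.2.3 and Trimmomatic 0.39 and the paper names another aligner, so aligner and version are uncertain. The labels and the paper also name different library kits, and counting ignored strand. Totals ran from 20581720 to 39266497, which puts a count of 3 at 0.0764 to 0.146 CPM.

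The libraries of the groups compared were fitted with edgeR 4.0.16 in R 4.3.3 (TMM, filterByExpr, quasi-likelihood test, Benjamini-Hochberg adjustment over all genes tested). Calls between groups needed an adjusted p under 0.05 and an absolute change above 0.5 on the log2 scale, and interactions only the former. Groups of the same side shared 1 fit. Replicates of a group differed beyond sampling noise, and each was counted, though such spread does not show that they came from separate animals. The genes and the lists beside them were chosen with earlier results of these data known. Named in the text are the 10 members, at most the 3 most abundant genes of each list and some of the 3 genes most like each member. Bglap, Ncan and Bcan were named after their values were seen. Likeness was Pearson's r of log2 CPM with a prior count of 2, and intervals are exact Poisson at 95%. Same-numbered libraries correlated by -0.058 to 0.081 after removal of group means, so numbers were not taken to pair them. Alternatives were RLE normalization, no filter, DESeq2 1.42.0, a single fit of all 24 libraries, a replicate block and each library left out. Leaving out Cap-W 2 and Bell-W 3 together was chosen after seeing the data. On counts simulated from the cap stage parts with 200 changed genes, edgeR recovered 199 with 7 false calls, on those from undivided mesenchyme 146 with 8, and on the interaction of side and stage 198 with 11. The changed genes had means over 2 CPM and log2 changes of 1 or 2 in either direction. Recovery of smaller changes, or of genes as low as Matn1, Matn3 and Snorc, was therefore not measured. Promoter windows are from RefSeq GRCm38.p6, positions from the deposited table, and gene names from GENCODE, which named 56017 of the genes.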

Additional observations from a re-analysis of the deposited data

Results flagged for a closer look

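The side difference of 5 cartilage genes changed between the cap and bell stages, by the test of the interaction over 12 libraries (edgeR, adjusted over all genes). The change in the log2 fold change of buccal over lingual was 0.54 for Sox9, 1.12 for Sox5, 0.69 for Sox6, 1.58 for Acan and 2.01 for Cnmd, with adjusted p of 2.06e-05, 2.71e-07, 3.37e-06, 6.68e-06 and 1.76e-06. For Acan the sides crossed, with -0.65 at the cap and 0.93 at the bell stage, both called. Its cap stage call was kept in only 4 of 6 fits with 1 library left out. For the other 4 genes the cap stage difference was called and the bell stage difference was not.

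For 6 genes the side difference changed between the fresh and the cultured cap stage parts. The change was -2.30 for Sox5, 1.10 for Sox6, 2.67 for Acan, 0.62 for Matn4, -2.23 for Cnmd and -1.58 for Hapln1 (adjusted p = 2.01e-10, 5.60e-11, 4.90e-12, 9.39e-07, 0.00116 and 1.87e-11). Acan crossed from -0.65 to 2.02 and Hapln1 from 0.52 to -1.06, all called. With 1 library left out, the cap stage call was kept in 4 of 6 fits for Acan and in 2 of 6 for Hapln1. Sox5 and Cnmd, higher in Cap-L before culture, differed more after it. The Cnmd value rests on 7 counts in Cap-B+2D. The same Cap-L and Cap-B libraries enter both interactions, so they are not independent.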

How the results depend on the processing

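No called result reversed, and among those not called the sign turned in some alternatives for Sox6, Hapln1 and Matn3, the last in culture of the lingual part (log2 fold change 0.54, but -0.20 without Cap-L+2D replicate 3). Of 123 recomputed counts of members called, 116 stayed within 1.5 times the main count and 7 moved, and of 922 recomputed log2 fold changes 890 kept their call, 21 lost it and 11 gained it. All 7 that moved left out 1 library: the bell stage side comparison (1 called) ranged from 1 to 2, with 2 without Bell-L 3, Bell-B 1 or Bell-B 2, and the stage comparison in undivided mesenchyme (5 called) ranged from 3 to 5, with 3 without Cap-W 1, Cap-W 3, Bell-W 1 or Bell-W 2, where Matn4 and Hapln1 lost their calls. With Cap-W 2 and Bell-W 3 both left out, 6 were called there, Sox9 among them (-2.03). In undivided mesenchyme Sox9 was also called without the filter, by DESeq2 and in the fit of all 24 libraries, and Acan by the last 2, and DESeq2 gave Matn4 no adjusted p. The fit of all 24 libraries, whose spread includes the uneven undivided groups, lost Acan (adjusted p = 0.0737) and Hapln1 (0.49) at the cap stage, Sox9 after culture (adjusted p = 0.0572) and the interactions of Sox9 with stage and Matn4 with culture. Hapln1 at the cap stage was also lost without the filter (0.49). The replicate number as a block, which the data do not back as a pairing, left 6 members called at the cap stage and changed no member's call in any of the 10 comparisons. Depth limits Matn1, Matn3 and Snorc in every group and Cnmd in Cap-B+2D.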
